A study of Homo sapiens with 18 samples.

Results

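The comparison described here set HL60 cells exposed to phorbol 12-myristate 13-acetate (PMA) against HL60 cells given only its vehicle, dimethyl sulfoxide (DMSO). Its changes came from 6 of the 18 arrays of the study, the 3 PMA-treated and the 3 DMSO-treated HL60 arrays by their labels. Its p-values took their spread from all 18 arrays, which were fitted together. It covered all 16267 genes with at least 3 probe sets of a single gene symbol. The study treated 3 human leukaemia lines in this way, HL60, THP-1 and U937, with 3 arrays in each of 6 groups. RNA levels were measured on Affymetrix human exon arrays. Both HL60 groups were grown in RPMI1640 with fetal calf serum. The PMA group received 30 nM for 3 days, and the DMSO group received the vehicle for the same 3 days. HL60 is a single established line from an acute leukaemia with promyelocytic features. The labels number the replicates but do not say whether they were separate cultures, so the p-values cover no more than the spread among these samples, which may be technical.

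PMA stands in for diacylglycerol, the lipid messenger that switches on protein kinase C and the RasGRP exchange factors for Ras. In HL60, prolonged exposure is known to stop division and to turn the suspended promyelocyte-like cells into adherent cells with features of macrophages. Promyelocytes fill their primary granules with myeloperoxidase and serine proteases under the control of transcription factors such as MYB, whereas macrophages are known for lysosomes, phagocytic receptors, matrix proteases and secreted cytokines.

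All values are on the log2 scale, so that 1 unit is a 2-fold difference, and levels are not comparable between genes. The 6 HL60 arrays had medians of 6.43 to 6.59. Pearson correlations were taken over genes, each the mean of its probe sets. They ran from 0.963 to 0.987 between DMSO arrays, from 0.960 to 0.988 between PMA arrays and from 0.844 to 0.890 between the groups. Levels under 5.17, the 30th percentile of probe sets, are called low below, and changes from or to such levels are approximate. Among the other lines, the U937 PMA array numbered 2 had the lowest median (6.18), and HL60 counts without both U937 arrays numbered 2 are given where they matter. Arrays have no read depth, and precision here depends on how many there were. A lower level in these extracts can come from fewer cells that express a gene or from less RNA per cell, and these cannot be told apart.

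The DMSO-treated cells carried the RNA of promyelocytes. Of 10 promyelocyte markers, 9 were measured and none was low in the DMSO group, where their mean level per array was 9.72 to 10.19, against 7.22 to 7.41 with PMA. Of the 9, 6 fell, and CD33, ANPEP and CEBPE were not called. Of 11 macrophage markers, 9 were measured, and their mean level per array was 5.20 to 5.46 with DMSO and 7.25 to 7.47 with PMA. Of these 9, 6 rose, CD14 (-1.13 ± 0.24) and FCGR1A (-2.40 ± 0.28) fell, and CD163 was not called and was low in both groups (means of 3.61 and 3.72). Markers of T and NK cells (10 of 10 measured) had mean levels per array of 5.31 to 5.50 with DMSO and 5.34 to 5.44 with PMA. The 3 measured markers of B and plasma cells, of 5, had mean levels of 5.32 to 5.46 with DMSO and 5.78 to 6.06 with PMA. For erythroid and megakaryocyte markers (6 of 8 measured) the ranges were 5.08 to 5.29 and 5.65 to 5.80, and for epithelial, fibroblast and endothelial markers (9 of 10) they were 5.34 to 5.44 and 5.61 to 5.69. Those last 3 classes each held 1 called increase, and the part of other cell types in the results was not tested.

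PMA changed a large share of the measured genes. At an adjusted p under 0.05 (limma's moderated test, Benjamini-Hochberg adjustment over all genes), 3745 genes were called, which is 23.0% of those tested. Of these, 2007 were higher with PMA (12.3%) and 1738 were lower (10.7%). At least 2-fold changes were called for 1302 and 1092 genes, at least 8-fold changes for 189 and 100, and at least 32-fold changes for 32 and 3. The median change of all genes was 0.13 log2 units, the median SE was 0.226, and the changes ran from -1.25 to 1.43 once the lowest and the highest 5% of genes were set aside. In 7491 genes (46.1%) the 3 PMA arrays lay wholly beyond the 3 DMSO arrays, and 3702 of the called genes were among them. Below, genes are said to have risen or fallen only where they passed this test. A value after ± is limma's SE of a change between 3 and 3 arrays, unless marked SD. This SE rests on a spread shared by all 6 groups of the study, not on the HL60 arrays alone. For genes whose HL60 arrays spread widely it can be too small. Of the called increases, 509 started from a low level, and of the called decreases, 376 ended at one. When each HL60 array was left out in turn, 3002 to 3495 genes were called.

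Promoter sequences are shown for genes at both ends of this response, since PMA has a response element named after it and the cell cycle genes that fell are known for shared promoter elements. The sequences are RefSeq's on build GRCh38.p14, written 5′ to 3′ on the strand of the gene. They cover the 250 bases before the first start site listed for each gene, and other start sites were not searched. Capitals mark the matches. The first group holds the TPA response element, the binding site of AP-1 (TGACTCA, or TGAGTCA on the other strand), in the promoters of EMP1, TM4SF19, MMP7 and IL1RN, which rose by 6.91, 6.40, 6.27 and 5.76 log2 units. They lie at chr12:13196476-13196725 (+), chr3:196338389-196338638 (-), chr11:102530748-102530997 (-) and chr2:113117721-113117970 (+). The matches begin 175, 214, 67 and 223 bases before the start.
EMP1: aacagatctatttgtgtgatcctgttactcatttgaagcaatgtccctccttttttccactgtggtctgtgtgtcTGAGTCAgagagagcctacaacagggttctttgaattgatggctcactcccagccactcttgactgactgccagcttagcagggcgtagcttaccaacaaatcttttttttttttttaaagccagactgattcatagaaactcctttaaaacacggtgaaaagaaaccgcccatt
TM4SF19: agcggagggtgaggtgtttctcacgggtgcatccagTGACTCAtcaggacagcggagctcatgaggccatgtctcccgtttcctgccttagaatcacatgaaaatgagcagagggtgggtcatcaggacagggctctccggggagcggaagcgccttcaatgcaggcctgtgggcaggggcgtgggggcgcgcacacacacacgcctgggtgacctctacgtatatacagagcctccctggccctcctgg
MMP7: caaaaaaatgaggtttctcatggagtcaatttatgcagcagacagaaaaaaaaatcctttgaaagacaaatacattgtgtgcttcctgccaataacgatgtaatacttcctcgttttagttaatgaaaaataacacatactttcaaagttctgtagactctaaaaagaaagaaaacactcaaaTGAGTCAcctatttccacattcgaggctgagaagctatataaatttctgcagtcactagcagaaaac
IL1RN: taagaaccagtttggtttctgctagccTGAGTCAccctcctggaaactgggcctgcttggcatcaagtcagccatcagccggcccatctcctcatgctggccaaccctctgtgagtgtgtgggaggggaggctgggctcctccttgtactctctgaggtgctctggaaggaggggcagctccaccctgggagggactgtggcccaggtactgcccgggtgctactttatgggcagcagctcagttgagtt

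Promoters of 3 DNA replication genes that fell are shown for the E2F site, bound by the factors that drive S phase genes. Any of TTTCCCGC, TTTGGCGC, TTTCGCGC and TTTGCCGC counted, on either strand. MCM6 (chr2:135876444-135876693, -) fell by 3.35 and held 4 matches, in 2 overlapping pairs. MCM7 (chr7:100101398-100101647, -) fell by 2.64 and held 2, and GINS2 (chr16:85688955-85689204, -) fell by 2.51 and held 1.
MCM6: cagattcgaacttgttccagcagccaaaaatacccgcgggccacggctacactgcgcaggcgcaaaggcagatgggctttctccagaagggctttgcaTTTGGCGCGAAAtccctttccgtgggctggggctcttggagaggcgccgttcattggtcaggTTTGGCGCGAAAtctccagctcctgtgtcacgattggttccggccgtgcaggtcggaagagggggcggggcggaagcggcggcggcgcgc
MCM7: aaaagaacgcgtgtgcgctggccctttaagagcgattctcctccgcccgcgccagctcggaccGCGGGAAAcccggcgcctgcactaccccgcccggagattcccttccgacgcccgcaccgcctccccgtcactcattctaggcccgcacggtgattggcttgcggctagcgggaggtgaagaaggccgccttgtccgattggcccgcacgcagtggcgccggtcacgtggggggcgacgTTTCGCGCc
GINS2: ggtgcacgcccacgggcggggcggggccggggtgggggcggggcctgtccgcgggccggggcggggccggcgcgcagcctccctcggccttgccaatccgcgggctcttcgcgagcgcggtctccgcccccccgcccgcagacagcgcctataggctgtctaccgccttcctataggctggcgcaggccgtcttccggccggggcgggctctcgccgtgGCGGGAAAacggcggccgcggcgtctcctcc

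Promoters of 3 mitotic genes are shown for the cell cycle homology region, an element of genes expressed late in the cell cycle (TTTGAA or the palindrome TTCGAA, on either strand). TOP2A (chr17:40417897-40418146, -) fell by 4.99 and held 2 matches. ANLN (chr7:36389612-36389861, +) fell by 4.07 and held 2 that adjoin, and ASPM (chr1:197146670-197146919, -) fell by 4.05 and held 1.
TOP2A: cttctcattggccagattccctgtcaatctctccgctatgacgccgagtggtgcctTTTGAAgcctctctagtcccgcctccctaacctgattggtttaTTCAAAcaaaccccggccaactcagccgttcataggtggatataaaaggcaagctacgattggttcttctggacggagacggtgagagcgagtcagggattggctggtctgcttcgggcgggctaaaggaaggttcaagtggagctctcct
ANLN: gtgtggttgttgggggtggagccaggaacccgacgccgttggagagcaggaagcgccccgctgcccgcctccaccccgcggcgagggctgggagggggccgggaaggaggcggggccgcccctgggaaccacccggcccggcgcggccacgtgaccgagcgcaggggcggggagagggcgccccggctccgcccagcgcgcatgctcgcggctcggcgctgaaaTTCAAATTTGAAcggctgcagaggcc
ASPM: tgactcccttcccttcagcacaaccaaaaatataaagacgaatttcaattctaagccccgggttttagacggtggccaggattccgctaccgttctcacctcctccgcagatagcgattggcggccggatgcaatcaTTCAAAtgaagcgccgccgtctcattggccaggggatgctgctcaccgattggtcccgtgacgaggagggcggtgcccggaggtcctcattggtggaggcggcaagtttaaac

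A promoter was matched for 12946 of the 16267 genes. The TPA response element stood in 3.10% of all of these, in 4.12% of the 1602 promoters of genes called higher, in 9.27% of the 151 of genes at least 8-fold higher and in 2.15% of the 1441 of genes called lower. Of the lists, it stood in 2 of the 14 promoters of matrix proteases and inhibitors and in 0 of the 16 of MAP kinase feedback genes, 0 of the 13 of integrins, 0 of the 33 of DNA replication genes and 0 of the 40 of mitosis genes. An E2F site stood in 3.78% of all promoters, in 33.3% of the 33 DNA replication promoters, in 6.66% of those of genes called lower and in 2.62% of those of genes called higher. The cell cycle homology region stood in 11.4% of all promoters, in 52.5% of the 40 mitosis promoters and in 35.4% of the 82 of genes at least 8-fold lower. The CCAAT box (CCAAT) stood in 34.6% of all promoters and 70.0% of the mitosis promoters, and the EGR site (GCGTGGGCG) in 1.04% of all and 1.56% of those called higher. With single-start genes alone, an alternative chosen after seeing the data, the shares were 12.8% against 3.14% for the TPA response element at 8-fold, 36.0% against 3.87% for E2F in replication and 54.3% against 11.3% for the cell cycle homology region in mitosis. A match describes these letters and is not a measured binding site.

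**Figure D1:**
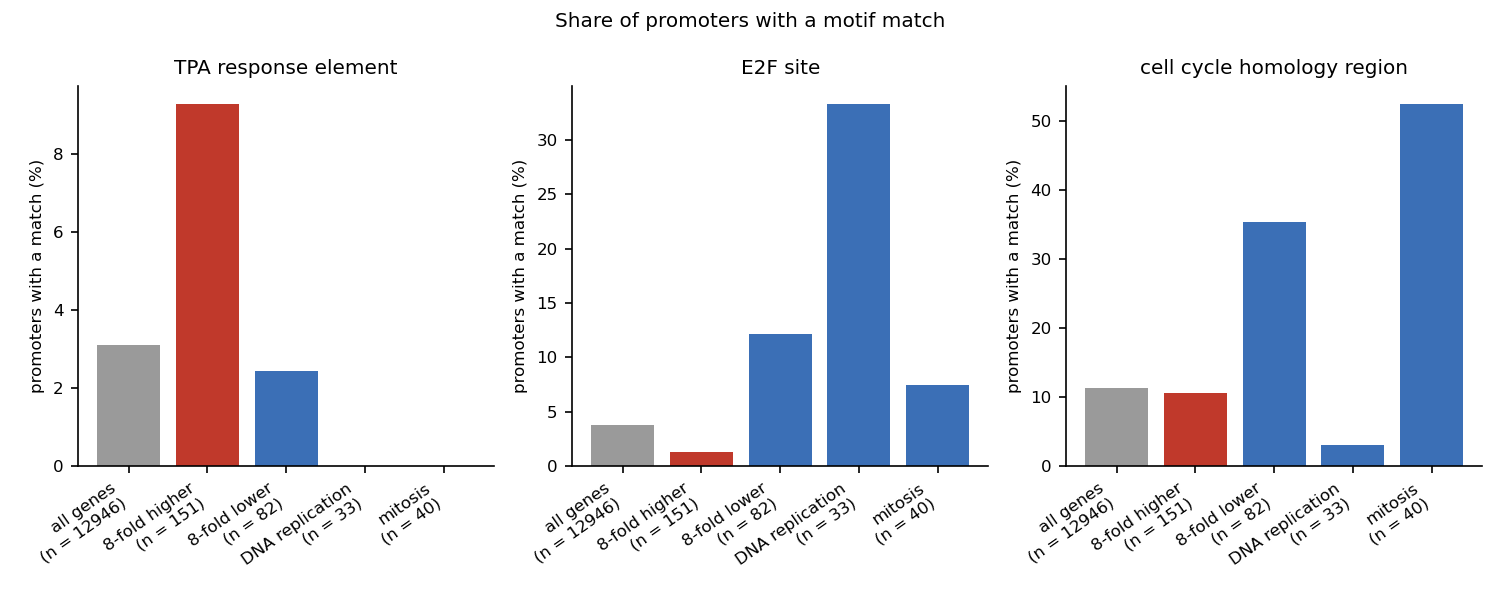
Share of promoters (percent, 250 bases before the start) with a match to the TPA response element, the E2F site and the cell cycle homology region, in all 12946 matched genes, the genes called at least 8-fold higher or lower in HL60, and the DNA replication and mitosis lists, with the number of promoters under each bar. The tallest bar is that of the 8-fold higher genes for the TPA response element (9.27%), of DNA replication for E2F (33.3%) and of mitosis for the cell cycle homology region (52.5%).

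Primary granule RNA fell almost throughout. Of 12 measured primary granule genes, 10 fell, 0 rose and 2 were not called, with a median change of -1.69 against 0.13 for all genes. Myeloperoxidase (MPO), which makes hypochlorous acid, had levels of 12.54, 12.72 and 12.55 with DMSO and of 6.94, 6.73 and 6.48 with PMA. The groups lay far apart and the arrays of each close together, a change of -5.88 ± 0.19 (SE, limma adjusted p = 2.72e-12). Neutrophil elastase (ELANE) went from 11.09, 11.33 and 11.07 to 7.13, 7.55 and 7.32 (-3.83 ± 0.21), again with no overlap. Cathepsin G (CTSG) fell by 3.36 ± 0.49, from 9.90, 8.45 and 8.13 to 5.73, 5.34 and 5.34, with 1 DMSO array well above the others. The protease PRTN3 fell by 3.26 ± 0.29, and SRGN, the proteoglycan core that packs granule proteases, by 1.86 ± 0.26. Among 18 specific and gelatinase granule genes, which appear later in neutrophil development, 7 fell, 2 rose and 9 were not called (median -0.53). S100A8, a calcium-binding protein of neutrophils and monocytes, fell from 10.97, 10.10 and 9.80 to 6.01, 5.14 and 4.97. Its partner S100A9 fell by 3.09 ± 0.68, with DMSO arrays at 10.05, 8.07 and 7.92. CEACAM8, a surface marker of granulocytes, had DMSO levels of 7.56, 7.56 and 5.37 and PMA levels of 4.92, 4.89 and 4.96, so that the third DMSO array lay near the PMA group. S100A12 fell by 1.83 ± 0.44. The gelatinase MMP9, also a macrophage product, went the other way, from 5.65, 5.71 and 5.69 to 8.30, 8.48 and 9.02.

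Transcription factors of progenitors moved unevenly. Of 25 measured, 9 fell, 3 rose and 13 were not called (median -0.51), and with the replicate number as a block 14 fell. Without the PMA array numbered 2, 1 rose. MYB, which keeps myeloid progenitors immature, had levels of 10.60, 11.00 and 10.68 with DMSO and 5.18, 5.53 and 5.17 with PMA, a fall of 5.47 ± 0.32. BCL11A, a zinc finger repressor, fell by 2.28 ± 0.24, and ZBTB16, a repressor of progenitor differentiation, by 1.88 ± 0.25. MYC went from 8.64, 8.40 and 8.16 to 6.97, 6.36 and 6.07, without overlap. ETV6 fell by 1.24 ± 0.31. Of 18 progenitor surface proteins, 6 fell, 3 rose and 9 were not called (median -0.20), and 3 fell without the DMSO array numbered 2. SELPLG, the ligand of P-selectin, fell by 2.02 ± 0.21 and CSF3R, the receptor of granulocyte colony-stimulating factor, by 1.58 ± 0.29. The stem cell factor receptor KIT had DMSO levels of 7.33, 7.44 and 4.62 against PMA levels of 4.35, 4.66 and 4.05. The groups overlapped, and its call (-2.11 ± 0.54, limma adjusted p = 0.0072) was lost without the DMSO array numbered 2 (adjusted p = 0.0544) and in HL60 arrays alone (adjusted p = 0.0758). The transferrin receptor TFRC fell by 1.00 ± 0.30, a call lost without either the DMSO array numbered 1 (adjusted p = 0.0806) or 2 (0.0721), or the PMA array numbered 2 (0.0652) or 3 (0.0583). CSF2RB, the shared chain of the receptors for GM-CSF and related cytokines, rose by 1.18 ± 0.23. CD33, a sialic acid receptor of myeloid cells, had levels of 8.83, 8.58 and 8.32 with DMSO and 8.69, 8.63 and 8.24 with PMA, which overlap, and CD34 changed by 0.09 ± 0.20. Neither was called.

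**Figure D2:**
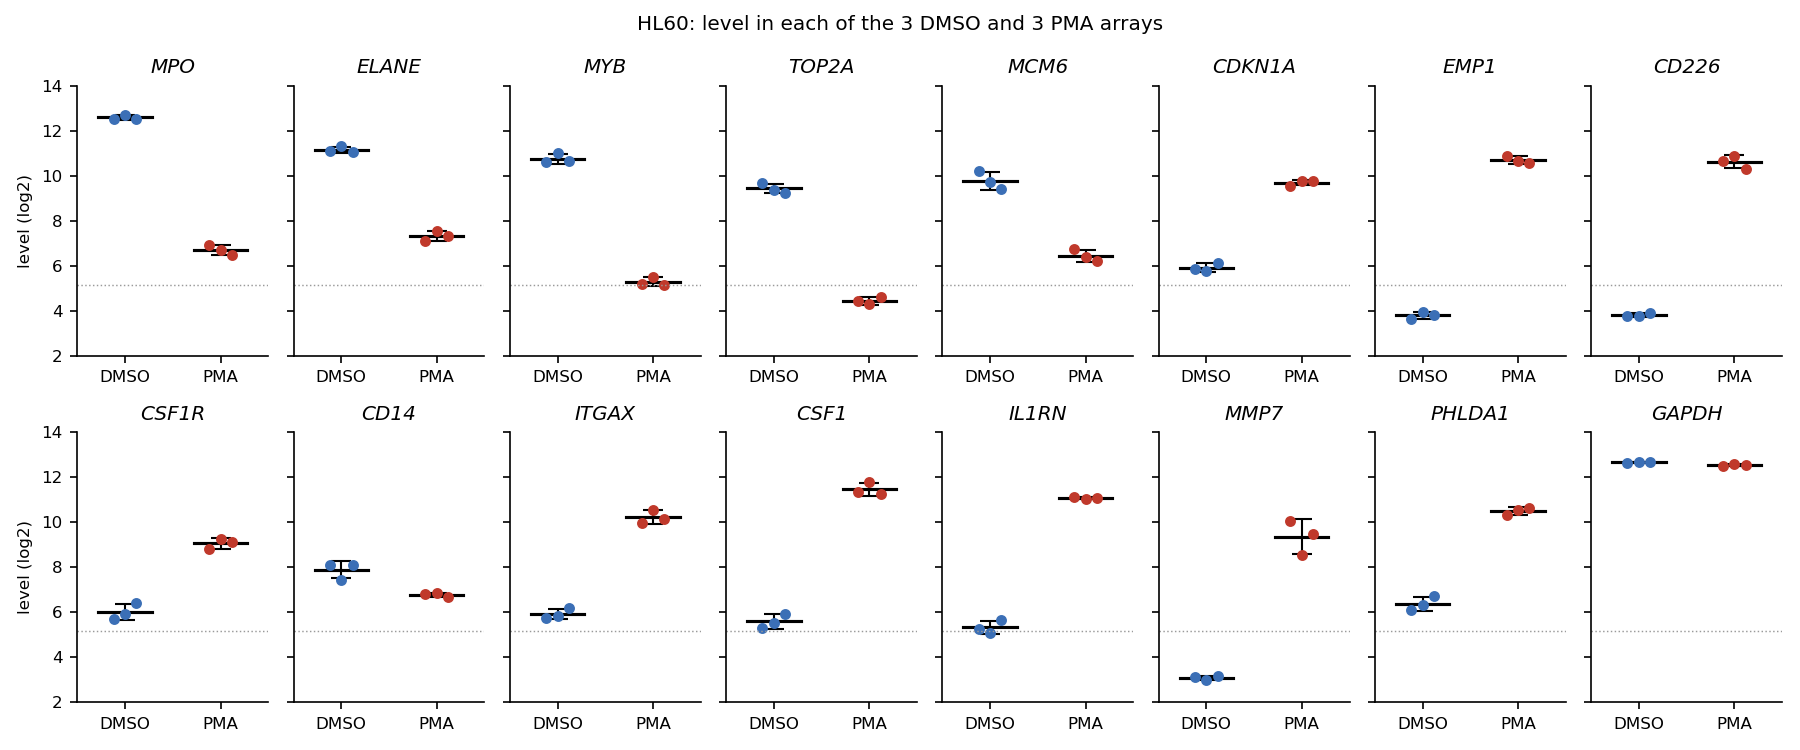
Level (log2) of 16 genes in each HL60 array, 3 with DMSO (blue) and 3 with PMA (red). Bars give the mean ± SD of 3 arrays, and the dotted line marks the level of 5.17 below which levels are low. The groups lie apart by means of 5.88 units for MPO and 1.13 for CD14, and those of GAPDH also do not overlap but differ by only -0.12, which was not called.

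Surface markers of monocytes and macrophages split into gains and losses. Of 21 measured, 10 rose, 3 fell and 8 were not called (median 0.57). CSF1R, the receptor that macrophages need for survival, went from 5.73, 5.95 and 6.41 to 8.81, 9.27 and 9.13 (3.04 ± 0.24), without overlap. ITGAX rose from 5.77, 5.84 and 6.19 to 9.97, 10.57 and 10.17, and ITGAM, its sister chain among the complement receptors, from 6.19, 6.18 and 6.46 to 9.53, 9.93 and 10.06. MERTK, a receptor for dying cells, rose by 4.28 ± 0.25 and CD36, a scavenger receptor, by 4.27 ± 0.44. The inhibitory Fc receptor FCGR2B rose by 4.69 ± 0.28 over 6 probe sets, a value that is uncertain because close copies of the gene can share its probes. CD14, which binds lipopolysaccharide, lay at 8.12, 7.46 and 8.13 with DMSO and at 6.80, 6.85 and 6.67 with PMA. All PMA arrays were below all DMSO arrays (-1.13 ± 0.24, limma adjusted p = 0.00184). 

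Of 30 transcription factors of macrophages, 15 rose, 1 fell and 14 were not called (median 0.65). EGR2, a zinc finger factor induced in maturing macrophages, went from 4.70, 5.11 and 5.44 to 10.83, 11.23 and 11.21. PPARG, a nuclear receptor for lipids, rose by 3.11 ± 0.33, and the helix-loop-helix repressors BHLHE40 and BHLHE41 by 3.10 ± 0.25 and 3.48 ± 0.32. IRF8, a factor of monocyte development, was the decrease, from 8.41, 8.69 and 10.33 to 6.12, 6.04 and 6.76. The third DMSO array stood above the others, and every PMA array lay below them. EGR1 rose by 1.28 ± 0.25.

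Genes of the lysosome and of lipid handling rose in majority. Of 24 lysosomal proteases and hydrolases, 13 rose, 0 fell and 11 were not called (median 1.09). Cathepsin L (CTSL) went from 5.10, 4.26 and 5.28 to 10.59, 9.55 and 9.92, and cathepsins H and B (CTSH, CTSB) rose by 2.79 ± 0.25 and 2.50 ± 0.20. The acid lipase LIPA rose by 2.54 ± 0.33 and NPC2, which moves cholesterol out of lysosomes, by 2.46 ± 0.42. Of 21 genes of lipid uptake, storage and efflux, 14 rose, 1 fell and 6 were not called (median 1.52). OLR1, a receptor for oxidized lipoprotein, rose from 4.91, 4.65 and 5.36 to 9.74, 9.52 and 9.20. FABP4, a fatty acid-binding protein of macrophages, lay at 2.76, 2.84 and 2.80 with DMSO and at 8.21, 4.65 and 6.12 with PMA. Its PMA arrays were all higher but spread widely (3.53 ± 0.68). GPNMB, a glycoprotein of lysosomes and melanosomes, rose by 3.84 ± 0.30 and the fatty acid-binding FABP3 by 2.79 ± 0.30.

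Other phagocyte genes were called in part. Of 23 receptors of phagocytosis and complement genes, 8 rose (34.8%, against 12.3% of all genes), 2 fell and 13 were not called (median 0.22). VSIG4, a complement receptor of tissue macrophages, rose by 2.20 ± 0.44, the endocytic receptor LRP1 by 1.95 ± 0.29, complement C3 by 1.80 ± 0.38 and the signalling adaptor TYROBP by 1.77 ± 0.23. Complement factor D (CFD), a serine protease, fell from 8.86, 8.97 and 8.55 to 6.32, 6.93 and 6.80. Of 10 NADPH oxidase genes, which make the oxidative burst, RAC2 rose by 1.49 ± 0.23, NCF4 fell by 1.30 ± 0.30 and 8 were not called (median 0.15), where 23.0% of all genes were called. The catalytic chain CYBB had 10.12, 10.07 and 10.34 with DMSO and 10.82, 10.90 and 10.65 with PMA. Its groups did not overlap, but its change was not called (0.61 ± 0.28, limma adjusted p = 0.148), although it passed with the replicate block (adjusted p = 0.0215), as did RAP1A (1.26 ± 0.49, 0.0749 and 0.000252), which brought the rises to 3. NOXO1 changed by 0.33 ± 0.19. Of 12 genes of MHC class II presentation, 4 rose, 1 fell and 7 were not called (median 0.18). The lysosomal reductase IFI30 rose by 2.62 ± 0.27, the protease CTSS by 1.89 ± 0.36, and the peptide exchange chains HLA-DMB and HLA-DMA by 1.42 ± 0.26 and 0.96 ± 0.25, whereas the invariant chain CD74 fell by 1.58 ± 0.31.

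Adhesion genes held some of the largest increases. Of 28 adhesion receptors and tetraspanins, 19 rose, 2 fell and 7 were not called (median 1.27). EMP1, a small epithelial membrane protein, had levels of 3.65, 3.94 and 3.82 with DMSO and 10.91, 10.65 and 10.57 with PMA, a rise of 6.91 ± 0.26 from a low level. The tetraspanin CD9 rose from 5.14, 4.84 and 5.05 to 12.29, 11.67 and 11.59. CD226, an adhesion receptor best known from NK and T cells, rose from 3.77, 3.77 and 3.90 to 10.68, 10.88 and 10.31. TM4SF19 and the proteoglycan SDC2 rose by 6.40 ± 0.32 and 4.26 ± 0.28. In all of these the groups lay apart. Of 20 integrin chains, 15 rose, 1 fell and 4 were not called (median 1.69). ITGB7 went from 7.30, 7.21 and 7.89 to 12.07, 12.23 and 12.00 (4.63 ± 0.27), ITGA3 rose by 3.51 ± 0.31 and ITGA6, a laminin receptor chain, by 3.14 ± 0.47. Of 40 podosome and actin genes, 16 rose, 1 fell and 23 were not called (median 0.36). The largest rises were of the unconventional myosin MYO1E (5.11 ± 0.28), the bundling protein FSCN1 (3.32 ± 0.20), the severing protein GSN (3.01 ± 0.23), CTTN (2.51 ± 0.21), a promoter of branched actin, and the protein kinase C substrate PLEK (2.16 ± 0.24). ACTB, the cytoplasmic actin, was not called, with 11.97, 12.56 and 12.55 against 12.53, 12.85 and 12.71.

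Increases were called among matrix proteases and, in fewer genes, among matrix proteins. Of 25 matrix proteases and inhibitors, 13 rose, 2 fell and 10 were not called (median 0.96), and of 25 extracellular matrix proteins 5 rose, 0 fell and 20 were not called (median 0.26). Of all genes, 12.3% were called higher, and the median change was 0.13. Whether the 5 of 25 matrix proteins exceed that share was not tested, nor was the difference between these lists. A2M, a broad protease inhibitor, went from 4.02, 4.25 and 4.29 to 10.81, 10.80 and 11.05. Matrilysin (MMP7) went from 3.11, 3.00 and 3.17 to 10.06, 8.54 and 9.50, with more spread among its PMA arrays. The inhibitor TIMP1 rose from 8.32, 8.42 and 8.21 to 13.01, 13.06 and 12.86, MMP19 by 3.79 ± 0.21 and MMP14, the membrane-bound activator of other matrix proteases, by 3.65 ± 0.24. Among matrix proteins, osteopontin (SPP1) went from 4.31, 4.43 and 4.27 to 11.47, 10.52 and 9.94. COL6A1 and TNC rose by 1.22 ± 0.21 and 0.97 ± 0.19. Fibronectin (FN1) lay at 3.93, 3.96 and 4.98 with DMSO and at 5.23, 5.40 and 7.85 with PMA, so that no array overlapped, but the third array of each group stood above the others. It was not called (1.87 ± 0.67, limma adjusted p = 0.054) and passed with the replicate block (adjusted p = 0.00221), as did COL6A3 (0.76 ± 0.30, 0.0793 and 0.0154). With the block, 8 matrix proteins rose, and 3 did so without DMSO array 1, DMSO array 2 or PMA array 3.

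Secreted signals were among the strongest increases. Of 28 cytokines and growth factors, 15 rose, 1 fell and 12 were not called (median 0.70). CSF1, the growth factor of macrophages and the ligand of CSF1R, had levels of 5.32, 5.54 and 5.94 with DMSO and 11.34, 11.81 and 11.27 with PMA (5.87 ± 0.28). IL1B, an inflammatory interleukin, went from 6.12, 5.74 and 5.43 to 11.50, 11.31 and 10.42, and IL1RN, the antagonist of its receptor, from 5.26, 5.10 and 5.67 to 11.14, 11.06 and 11.11. Ligand and antagonist both rose by more than 5 units. HBEGF, a ligand of the EGF receptor, rose by 4.19 ± 0.24 and TNFSF15, of the TNF family, by 3.66 ± 0.35. Of 31 chemokines and chemoattractant receptors, 12 rose, 5 fell and 14 were not called (median 0.33). CCL1 went from 4.24, 4.62 and 4.67 to 9.74, 10.32 and 9.03, CCL22 from 5.37, 5.31 and 5.41 to 9.92, 9.95 and 11.13, and CCL5 from 6.71, 5.82 and 6.58 to 11.66, 11.23 and 10.88. CXCL16 rose by 3.15 ± 0.23. The receptor CCR2, which draws monocytes out of bone marrow, fell from 7.70, 7.05 and 8.48 to 4.27, 3.79 and 4.36.

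Genes at the entry point of the PMA signal moved in both directions. Of 24 protein kinase C, diacylglycerol kinase and RasGRP genes, 9 rose, 3 fell and 12 were not called (median 0.05), and 5 fell with the replicate block. RASGRP3, a Ras exchange factor that phorbol esters bind, went from 3.91, 3.94 and 3.82 to 7.17, 7.23 and 7.18, and RASGRP1 from 3.85, 4.18 and 3.99 to 5.94, 6.20 and 6.63. RASGRP2, which acts on Rap, fell from 8.40, 8.59 and 8.55 to 6.04, 6.17 and 6.21. No array of these 3 genes crossed between groups. Of the kinases that clear diacylglycerol, DGKG fell by 2.12 ± 0.28 and DGKI rose by 1.49 ± 0.22.

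Most feedback genes of the MAP kinase pathway were higher after 3 days of PMA. Of 22 measured, 17 rose, 1 fell and 4 were not called (median 1.46). PHLDA1 went from 6.12, 6.32 and 6.71 to 10.32, 10.56 and 10.65. The Ras pathway inhibitors SPRED1 and SPRY2 rose by 3.41 ± 0.23 and 3.30 ± 0.33, and the phosphatases DUSP5 and DUSP6, which act on ERK, by 3.25 ± 0.19 and 2.98 ± 0.21. Of 15 AP-1 factors, 6 rose, 1 fell and 8 were not called (median 0.43). JUN went from 5.82, 5.42 and 5.16 to 10.28, 9.85 and 9.82, and ATF3 rose by 3.34 ± 0.26, JUNB by 2.31 ± 0.32, MAFF by 1.53 ± 0.23 and JUND by 1.06 ± 0.23. Of 21 genes of NF-kappaB signalling, 10 rose, 0 fell and 11 were not called (median 0.77). The activation marker CD83 rose by 2.07 ± 0.26, the subunit NFKB2 by 1.41 ± 0.22, the inhibitors NFKBIE and NFKBIA by 1.39 ± 0.20 and 1.26 ± 0.22 and the deubiquitinase TNFAIP3 by 1.24 ± 0.26. With the replicate block, 2 genes of this list fell.

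The machinery of division fell as a block. Of 45 mitosis genes, 42 fell, 0 rose and 3 were not called (median -3.07), and 29 of the 45 ended at a low level. TOP2A, which untangles sister chromatids, went from 9.69, 9.38 and 9.26 to 4.43, 4.29 and 4.63. CENPF, a kinetochore protein, fell by 4.30 ± 0.29, ANLN, needed for cytokinesis, by 4.07 ± 0.25, ASPM, of the spindle pole, by 4.05 ± 0.28, and DLGAP5, which stabilises spindle fibres, by 4.02 ± 0.32. Of 39 DNA replication genes, 35 fell, 0 rose and 4 were not called (median -2.21). MCM6, a helicase subunit, went from 10.21, 9.75 and 9.41 to 6.75, 6.38 and 6.20. CDC45 fell by 3.22 ± 0.27, the polymerase subunit POLE2 by 3.11 ± 0.33, MCM4 by 3.08 ± 0.19 and the kinase CDC7 by 3.02 ± 0.24. Of 27 genes of nucleotide synthesis, 18 fell, 0 rose and 9 were not called (median -1.29). Thymidylate synthase (TYMS) fell by 3.11 ± 0.29, DUT, which removes dUTP, by 2.42 ± 0.57, the CTP synthases CTPS2 and CTPS1 by 2.37 ± 0.20 and 2.22 ± 0.25, and the purine enzyme PAICS by 2.24 ± 0.27.

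Regulators of the cycle went both ways. Of 27 CDK inhibitors, cyclins and pocket proteins, 7 rose, 14 fell and 6 were not called (median -0.65). CDKN1A, an inhibitor of cyclin-dependent kinases, went from 5.86, 5.76 and 6.14 to 9.57, 9.76 and 9.79 (3.79 ± 0.18). The mitotic kinase CDK1, under its older symbol CDC2 on the array, fell from a mean of 7.66 ± 0.82 to 3.97 ± 0.50 (SD, n = 3), without overlap. Cyclin A (CCNA2) fell by 3.43 ± 0.25, the repressor E2F8 by 2.86 ± 0.19 and the pocket protein RBL1 by 2.72 ± 0.20. The signal of CDKN2A, a gene this line is known to have lost, changed by 0.69 ± 0.15 (limma adjusted p = 0.00224), with 6.78, 6.79 and 6.69 against 7.36, 7.49 and 7.48. That call was lost when the median of probe sets was used (adjusted p = 0.0688). Both groups lay above the low limit of 5.17, and the source of this signal was not tested. Levels and small changes in this range are therefore uncertain for other genes too. Of 27 genes of the p53 list, 11 rose, 6 fell and 10 were not called (median 0.36). Besides CDKN1A these were led by BTG2, which restrains proliferation (3.48 ± 0.27), TIGAR, which lowers glycolysis (3.03 ± 0.54), the stress protein SESN1 (1.81 ± 0.30) and the kinase PLK3 (1.58 ± 0.25).

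Genes of ribosome assembly fell with those of division. Of 28 measured, 22 fell, 0 rose and 6 were not called (median -0.98). The count was 12 without the DMSO array numbered 1 and 14 without the DMSO array numbered 2. UTP20 fell by 1.96 ± 0.28, the nucleolar methyltransferase FBL by 1.83 ± 0.47, HEATR1 by 1.83 ± 0.29, NOLC1 by 1.68 ± 0.23 and POLR1E, a subunit of RNA polymerase I, by 1.59 ± 0.23. Fibrillarin (FBL) had levels of 11.61, 10.61 and 10.32 with DMSO and 9.76, 8.79 and 8.49 with PMA, with the arrays numbered 1 highest in both groups. Of 19 aminoacyl-tRNA synthetases, 3 fell, 1 rose and 15 were not called (median -0.51). The falls were of LARS1 (-1.65 ± 0.28), FARSB (-1.41 ± 0.33) and VARS1 (-0.71 ± 0.24), the last of which was lost whichever HL60 array was left out (adjusted p = 0.0559 to 0.132). WARS1, which is also induced by interferon, rose by 1.65 ± 0.28. With the replicate block 7 synthetases fell, and with quantile normalization or median centring 8 did. KARS1 was among them (-0.80 ± 0.32, limma adjusted p = 0.0839, 0.00236 with the replicate block).

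Metabolic genes were mixed. Of 18 cholesterol synthesis genes, 8 rose, 1 fell and 9 were not called (median 0.86). MSMO1 went from 7.76, 7.87 and 7.50 to 10.87, 10.62 and 10.36, and STARD4, a cholesterol carrier, rose by 2.61 ± 0.32, HMGCS1 by 1.53 ± 0.39, SQLE by 1.52 ± 0.35 and INSIG1, the sterol-sensing brake, by 1.35 ± 0.30. Of 26 genes of glycolysis and glucose transport, 8 rose, 3 fell and 15 were not called (median 0.04), and 5 fell with the replicate block. FBP1, an enzyme of glucose production, went from 6.77, 6.35 and 6.05 to 11.60, 11.44 and 10.95. ENO2 rose by 3.13 ± 0.25, PFKFB4 by 2.75 ± 0.30 and the glucose transporter SLC2A3 by 2.24 ± 0.30, whereas the fructose transporter SLC2A5 fell by 1.69 ± 0.29. GAPDH had levels of 12.65, 12.68 and 12.69 with DMSO and 12.49, 12.61 and 12.55 with PMA, which do not overlap but were not called (-0.12).

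Of 23 genes of haem synthesis and iron handling, 4 rose, 5 fell and 14 were not called. Their median, -0.08, changed sign among the alternatives, and the falls numbered 3 without DMSO array 1, DMSO array 2 or PMA array 3. Ferritin heavy chain (FTH1) went from 9.32, 8.12 and 8.03 to 12.13, 11.21 and 11.41, haem oxygenase (HMOX1) rose by 2.56 ± 0.55 and ALAS1, the first enzyme of haem synthesis, by 1.56 ± 0.22. The mitochondrial iron importer SLC25A37 fell by 1.74 ± 0.19. The iron exporter SLC40A1 changed by -1.03 ± 0.30, a call lost without DMSO array 1 (adjusted p = 0.0867), DMSO array 2 (0.056) or PMA array 3 (0.0511). Of 29 respiratory chain genes, 1 rose, 0 fell and 28 were not called by limma, with a median of -0.08 that also changed sign among the alternatives. The rise was of COX5B, from 9.60, 8.56 and 8.16 to 11.48, 10.13 and 10.30, and was lost without DMSO array 2 (adjusted p = 0.0651), DMSO array 3 (0.0813) or PMA array 1 (0.0945). With the replicate block 2 respiratory genes rose and 3 fell.

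Of 24 genes of the BCL2 family and other death regulators, 8 rose, 5 fell and 11 were not called (median 0.42), and 5 rose without the PMA array numbered 1. BCL2, which blocks mitochondrial cell death, went from 8.75, 8.21 and 8.21 to 6.11, 5.81 and 5.63. The survival gene BIRC5, expressed in mitosis, fell by 2.97 ± 0.22 and BCL2L11, a killer member of the family, by 1.87 ± 0.26. CASP9, a caspase of the mitochondrial route, rose by 1.71 ± 0.24. The protective BCL2A1 lay at 6.44, 5.26 and 4.38 with DMSO and at 9.13, 7.44 and 7.12 with PMA. Its arrays did not overlap but spread widely (2.53 ± 0.67), and its call was lost without DMSO array 3 (adjusted p = 0.052) or PMA array 1 (0.0551).

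Interferon-stimulated genes rose in part. Of 26 measured, 10 rose, 1 fell and 15 were not called (median 0.53), and 6 rose without the DMSO array numbered 2. The levels of 16 were low with DMSO. IFIT3 went from 4.12, 3.13 and 3.45 to 6.43, 5.47 and 6.36, IFI6 rose by 2.26 ± 0.21 and OAS1, an RNA sensor, by 1.70 ± 0.21. IFIT2 (1.34 ± 0.36) lost its call without DMSO array 3 (adjusted p = 0.0505) or PMA array 1 (0.0621), and IFI35 (1.30 ± 0.36) without DMSO array 2 (0.0658) or PMA array 1 (0.0736).

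Genes of other cell types are set here against the 23.0% of all genes that were called. Of 20 T and NK cell genes, 1 rose, 1 fell and 18 were not called (median 0.17). The protease granzyme B (GZMB) went from 4.57, 4.92 and 4.83 to 7.19, 7.01 and 7.38, NKG7, a granule membrane protein, fell by 1.58 ± 0.19, and KLRD1, LCK and GNLY changed by 0.50 ± 0.21, 0.41 ± 0.20 and 0.36 ± 0.29. KLRD1 passed with the replicate block (adjusted p = 0.0408), and 4 genes rose without both U937 arrays numbered 2. Of 10 B and plasma cell genes, CD79A (1.00 ± 0.26) and CR2 (0.61 ± 0.19) rose and BANK1 (-1.04 ± 0.30) fell. All were lost when the PMA array numbered 3 was left out (adjusted p = 0.0539, 0.0868 and 0.059). CR2 was also lost without DMSO array 1 (0.0765), DMSO array 2 (0.139) or PMA array 1 (0.0807), and BANK1 without DMSO 1 (0.108) or DMSO 2 (0.0735). Of 12 erythroid and megakaryocyte genes, the platelet chemokine PPBP rose by 2.75 ± 0.61 and 11 were not called (median 0.04, which changed sign among the alternatives). Of 15 epithelial, fibroblast and endothelial genes, VWF rose from 4.90, 4.92 and 4.96 to 6.69, 6.79 and 6.63 and 14 were not called (median 0.15).

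Of 19 dendritic cell and osteoclast genes, 8 rose, 1 fell and 10 were not called (median 0.40). DCSTAMP, which osteoclasts and giant cells need to fuse, had the largest increase of all genes. Its levels were 3.79, 3.69 and 3.33 with DMSO and 12.29, 12.13 and 12.09 with PMA (8.57 ± 0.33, from a low level), over 5 probe sets. The lipid-presenting CD1C rose by 2.19 ± 0.28 and CD1A by 1.64 ± 0.29.

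**Figure D3:**
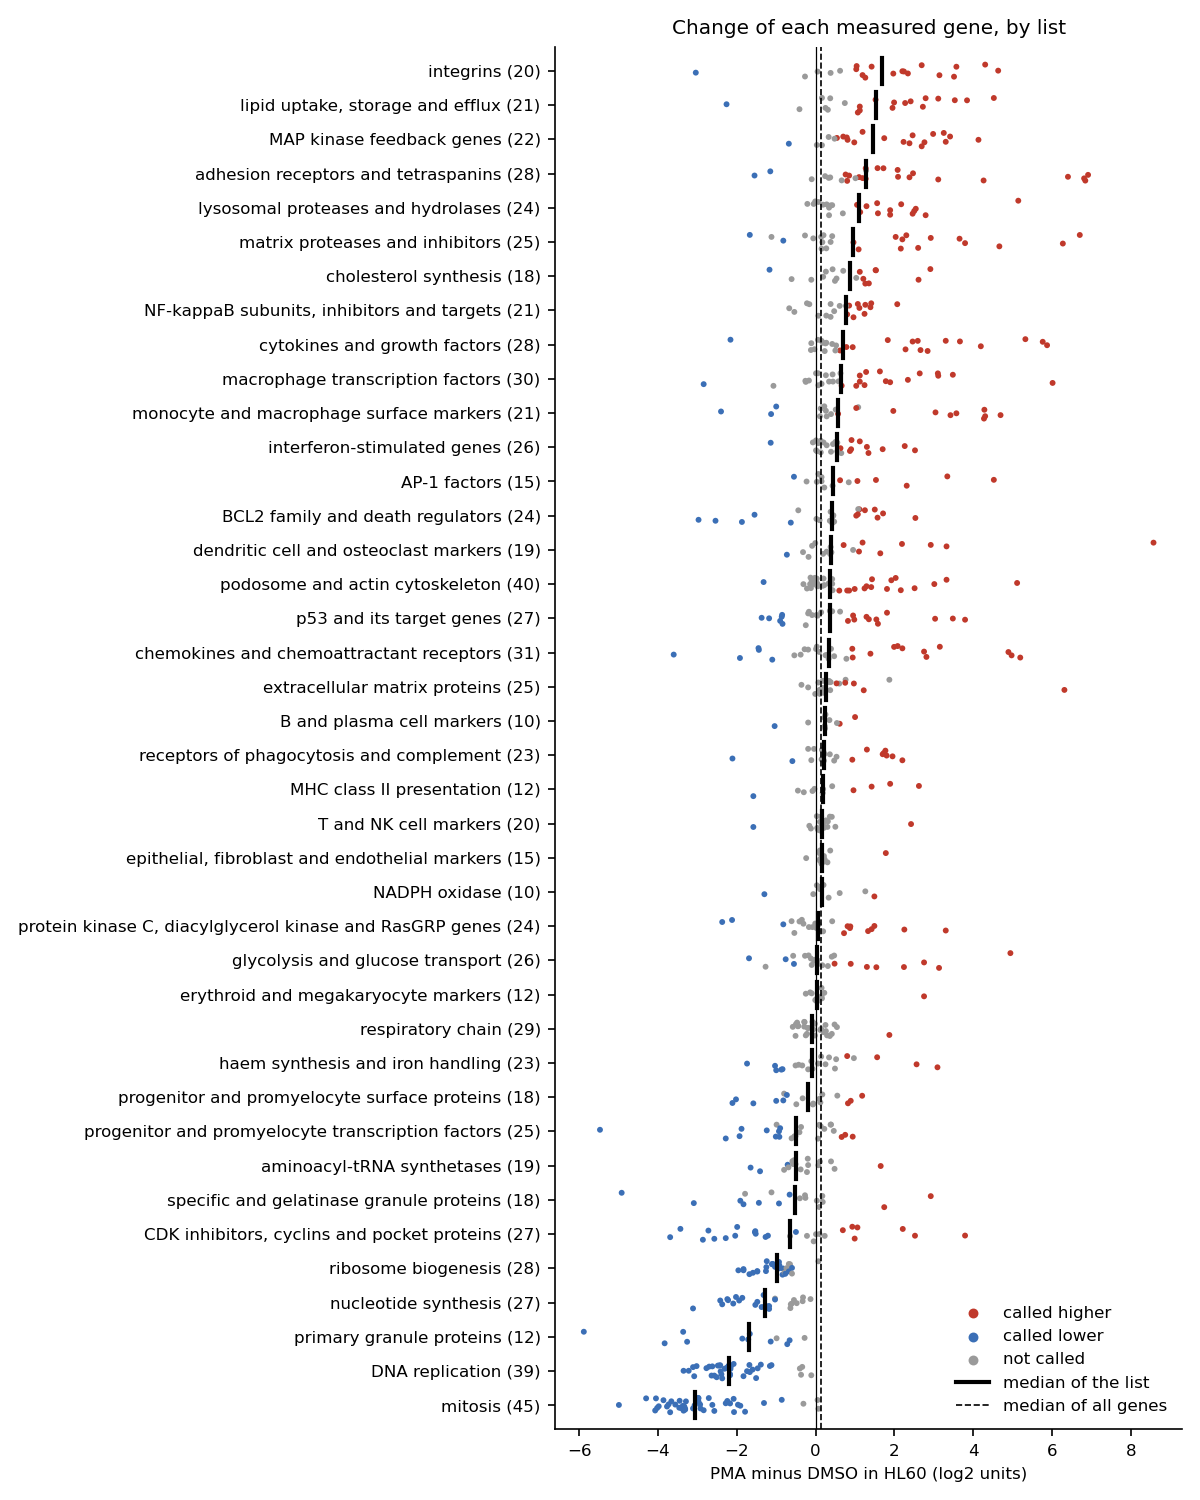
Change in HL60 (PMA minus DMSO, log2 units) of each measured gene in 40 lists, ordered by the list's median (thick bars), with the number of genes in brackets. Red points were called higher, blue points lower and grey points not called, and the dashed line is the median of all genes (0.13). Mitosis (-3.07) and DNA replication (-2.21) lie at the bottom and integrins (1.69) at the top.

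Leaving out 1 array moved some list counts of 1 or 2 calls, in the lists of AP-1 factors, MAP kinase feedback genes, adhesion receptors, phagocytosis receptors, matrix proteases, dendritic cell genes and macrophage transcription factors, by 1 gene in each. The lower calls of AP-1, feedback and dendritic cell genes then went from 1 to 0, those of macrophage transcription factors from 1 to 2, and those of the other lists from 2 to 1. The lists overlap in some genes and were chosen with knowledge of earlier results, so their counts are descriptions.

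Beyond the lists, the 25 largest increases ran from 5.33 to 8.57 log2 units, and 19 of the 25 genes were low with DMSO. RGS1, which shortens G protein signals, went from 3.37, 2.85 and 2.60 to 10.85, 9.33 and 9.19. CD52, a small glycoprotein of leukocyte surfaces, went from 6.26, 4.90 and 5.38 to 12.93, 12.19 and 12.11, and the kinase SGK1 from 5.59, 5.19 and 5.52 to 11.89, 11.56 and 11.67. The water and glycerol channel AQP9 rose by 6.12 ± 0.44 and CRABP2, which carries retinoic acid to its receptor, by 6.10 ± 0.29. Both are carriers of small molecules, and both lay apart from DMSO in every array. GALNT12, a glycosyltransferase, rose by 6.43 ± 0.23, FCRLA, a Fc receptor-like protein, by 5.78 ± 0.39, and the lymphocyte activation receptors SLAMF7 and SLAMF6 by 5.59 ± 0.27 and 5.33 ± 0.24. The trypsin inhibitor SPINK1 went from 3.13, 3.42 and 3.72 to 11.14, 7.91 and 8.15, with the first PMA array well above the others. PNOC, the precursor of the peptide nociceptin, rose by 5.53 ± 0.25, the sodium pump subunit ATP1B1 by 5.43 ± 0.27, the surface protein CD109 by 5.39 ± 0.32 and the adaptor SHC4 by 5.39 ± 0.20.

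The 25 largest decreases ran from 3.73 to 6.47, and 16 of the 25 genes ended low. SERPINB10, a protease inhibitor of blood-forming cells, went from 10.30, 10.18 and 10.03 to 3.70, 3.87 and 3.53, the largest fall of all genes. NUCB2, a calcium-binding protein, fell by 4.78 ± 0.42, PLAC8, of immature myeloid cells, by 4.52 ± 0.32, ANKRD22 by 4.29 ± 0.17, the orphan receptors GPR160 and GPR141 by 4.26 ± 0.49 and 3.73 ± 0.22, and the membrane protein MS4A6A by 4.07 ± 0.38. The others included MPO and ELANE of the primary granules, S100A8, the transcription factor MYB and many genes of the cell cycle. PCLAF, a partner of the replication clamp, fell by 4.50 ± 0.54, CDCA7 by 4.14 ± 0.21, DTL, which marks replication factors for degradation, by 4.09 ± 0.23, and the checkpoint kinase CHEK1 by 3.96 ± 0.26. The kinesins KIF11 and KIF14 fell by 3.98 ± 0.23 and 3.86 ± 0.31, the spindle checkpoint protein BUB1B by 3.77 ± 0.22, the microtubule regulator STMN1 by 3.94 ± 0.38 and the chromatin protein HMGB2 by 3.77 ± 0.66. HMGB2 had levels of 10.71, 9.56 and 9.38 with DMSO and 7.19, 5.51 and 5.66 with PMA, with the arrays numbered 1 highest in both groups.

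The effect of PMA in HL60 was then set against the mean of its effects in THP-1 and U937, a difference of differences tested in the same limma fit. This difference was called for 1379 genes (8.48%), 997 with a higher and 382 with a lower effect in HL60, and for 2829 genes with the replicate block. Without both U937 arrays numbered 2 it was called for 1798. Against each line separately, 572 genes differed from both in the same direction. Of the 2007 genes that rose in HL60, 843 were also called higher in THP-1, 628 in U937 and 432 in both, while 40 and 60 were called lower there. Of all genes, 9.37% were called higher in THP-1 and 5.50% in U937. For 732 of the 2007 (36.5%) the HL60 effect was higher than the mean of the other lines by the test of the difference. Of all 16267 genes, 997 were. The 2007 genes were picked by the same HL60 arrays, which raises their share in advance, so it is only a description. Of the 1738 that fell, 1128 were also called lower in THP-1, 1263 in U937 and 965 in both, while 26 and 16 were called higher there. Of all genes, 13.2% were called lower in THP-1 and 16.5% in U937. For 249 of the 1738 (14.3%) the fall was larger in HL60 by that test, a share raised in the same way. Of all 16267 genes, 382 had a lower effect in HL60. The lines share no arrays.

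CD226 had the largest difference, with a change of 6.81 ± 0.24 in HL60 against -0.01 and -0.39 in THP-1 and U937 (difference 7.01, limma adjusted p = 1.14e-10). GALNT12 changed by 6.43 in HL60 and by -0.71 and 0.12 in the others (difference 6.73, adjusted p = 1.14e-10). CRABP2 changed by 6.10, 1.05 and -0.37 in the order HL60, THP-1 and U937 (difference 5.76, 1.52e-08), FBP1 by 4.94, -1.16 and 0.68 (5.18, 5.72e-07) and SPINK1 by 5.65, 0.57 and 0.37 (5.17, 5.4e-05). In these 5 genes the rise in HL60 had no match of its size in either other line. In the other direction, MPO changed by -5.88, -0.81 and 0.20 (difference -5.58, adjusted p = 1.14e-10) and SERPINB10 by -6.47, -2.70 and -0.81 (-4.71, 1.21e-08). S100A8 changed by -4.92, -2.65 and 1.67 (-4.43, 0.000358). Against each line alone, its effect differed from that in U937 (limma adjusted p = 3.15e-05) but not from that in THP-1 (0.1). Of the collagenases, MMP1 changed by 2.30, 7.22 and 5.94 (-4.28, 0.0016) and MMP8 by -1.12, 2.66 and 3.50 (-4.20, 0.000361). In HL60 itself the rise of MMP1 was lost without the PMA array numbered 1 (adjusted p = 0.0659), and MMP8 was not called (adjusted p = 0.158, 0.0415 with the replicate block). CD14 fell in HL60 and changed by 3.84 in THP-1 and 1.46 in U937 (difference -3.79, adjusted p = 2.52e-07).

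Among the lists, the test of the difference called 19 of the 45 mitosis genes lower in HL60 and 3 higher. Higher and lower calls were 9 and 1 of the 28 cytokines and growth factors, 8 and 0 of the 21 lipid genes and 5 and 0 of the 18 cholesterol synthesis genes. Of 18 specific and gelatinase granule genes, 7 differed towards HL60 being lower and 0 towards higher. Of all 16267 genes, 997 were called higher and 382 lower. Among lists left out here, ribosome biogenesis (28 genes) and NF-kappaB signalling (21) had 0 calls either way. Macrophage transcription factors (30) had 8 higher and 1 lower. Mitosis genes had medians of -3.07 in HL60, -2.12 in THP-1 and -2.06 in U937. Cholesterol synthesis genes had medians of 0.86, -0.02 and -0.09. Of the 25 largest increases in HL60, 19 were also called higher in THP-1, against 9.37% of all genes, and 15 in U937, against 5.50%. Of the 25 largest decreases, 21 were also called lower in each, against 13.2% and 16.5% of all genes.

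**Figure D4:**
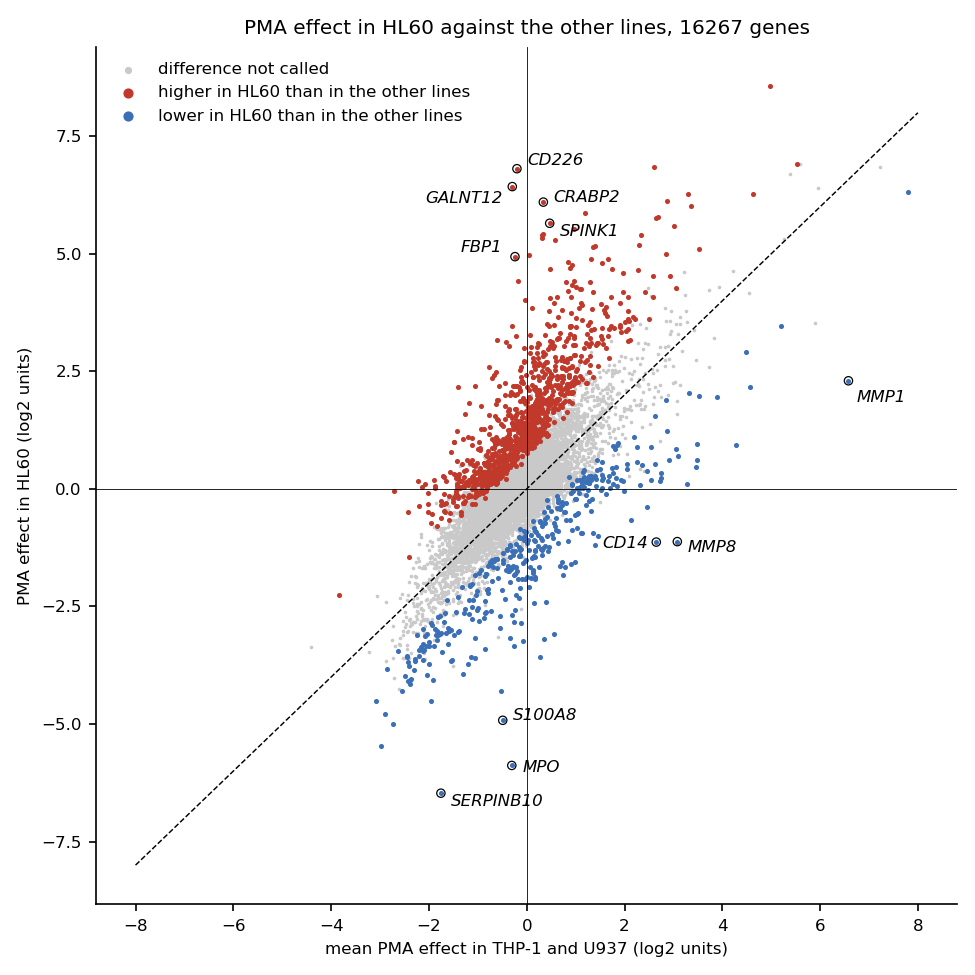
PMA effect in HL60 (log2 units) against the mean effect in THP-1 and U937 for 16267 genes. Each point is a gene, red where the tested difference was called with a higher effect in HL60 (997 genes), blue where lower (382) and grey where not called. The dashed line marks equal effects, and circles mark the genes with the 5 largest differences in each direction and CD14.

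Exon usage was examined with the splicing index, the level of a probe set minus the mean of its gene on the same array. That mean took only probe sets above the 30th percentile. The gene changes and the 2-fold limit given with the index took all probe sets of the gene. These means can differ, so a gene under 2-fold over all probe sets can have changed by more over those in the index. Among 175116 probe sets in 11976 genes, 6050 differed between PMA and DMSO by at least 1 log2 unit at an adjusted p under 0.05 (3.45%), in 2271 genes. Most lay in genes that themselves changed. Of the called probe sets, 2716 were in genes at least 2-fold higher and in 1534 of these the index fell, and 2033 were in genes at least 2-fold lower and in 1375 of these the index rose. The part of the gene's own change in these counts was not tested. In genes that changed by less than 2-fold, 1301 probe sets of 872 genes were called.

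Among genes that changed by under 2-fold, the largest index change was in the phospholipid flippase ATP8B3. Its probe set lay at 6.91, 7.71 and 6.99 with DMSO and at 1.48, 2.14 and 1.40 with PMA. The gene changed by -0.58 over all its probe sets. The index, with a gene mean over 34 probe sets, changed by -4.77 ± 0.50 (limma adjusted p = 2.69e-05). A probe set of the calcium channel subunit CACNA2D3 rose from 5.23, 4.43 and 4.88 to 6.20, 5.61 and 6.58. The gene changed by -0.77 over all its probe sets, and the index, with its narrower gene mean, by 3.52 ± 0.33. In SEZ6L2 a probe set rose from 1.43, 1.69 and 3.55 to 5.87, 5.95 and 6.89 (3.20 ± 0.35), and in PIGR, the transporter of polymeric antibodies, from 3.54, 3.14 and 4.04 to 7.11, 7.67 and 8.46 (3.06 ± 0.51). Probe sets of SAPCD2 (-3.12 ± 0.25), LYSMD2 (-3.10 ± 0.41) and TESMIN (-2.95 ± 0.37) fell. In all of these the 3 PMA arrays lay beyond the 3 DMSO arrays. A probe set of PZP rose from 5.50, 4.67 and 5.12 to 11.00, 11.39 and 11.44 (3.40 ± 0.52), which is uncertain because PZP closely resembles A2M, which itself rose by 6.70 ± 0.35. For the histone gene H2AC6 (3.44 ± 0.93, adjusted p = 0.0433) the call was lost without any single HL60 array other than DMSO 1 (adjusted p = 0.0745 to 0.164) and without both U937 arrays numbered 2 (0.0646). For SCG5 (-3.04 ± 0.69) it was lost without DMSO array 2 (0.0624) or PMA array 1 (0.071). Of the 10 genes, 6 were themselves called, among them SEZ6L2 (0.81 ± 0.25, limma adjusted p = 0.0245) and PIGR (0.96 ± 0.24, adjusted p = 0.00559). Positions of probe sets and exon numbers were not used here.

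**Figure D5:**
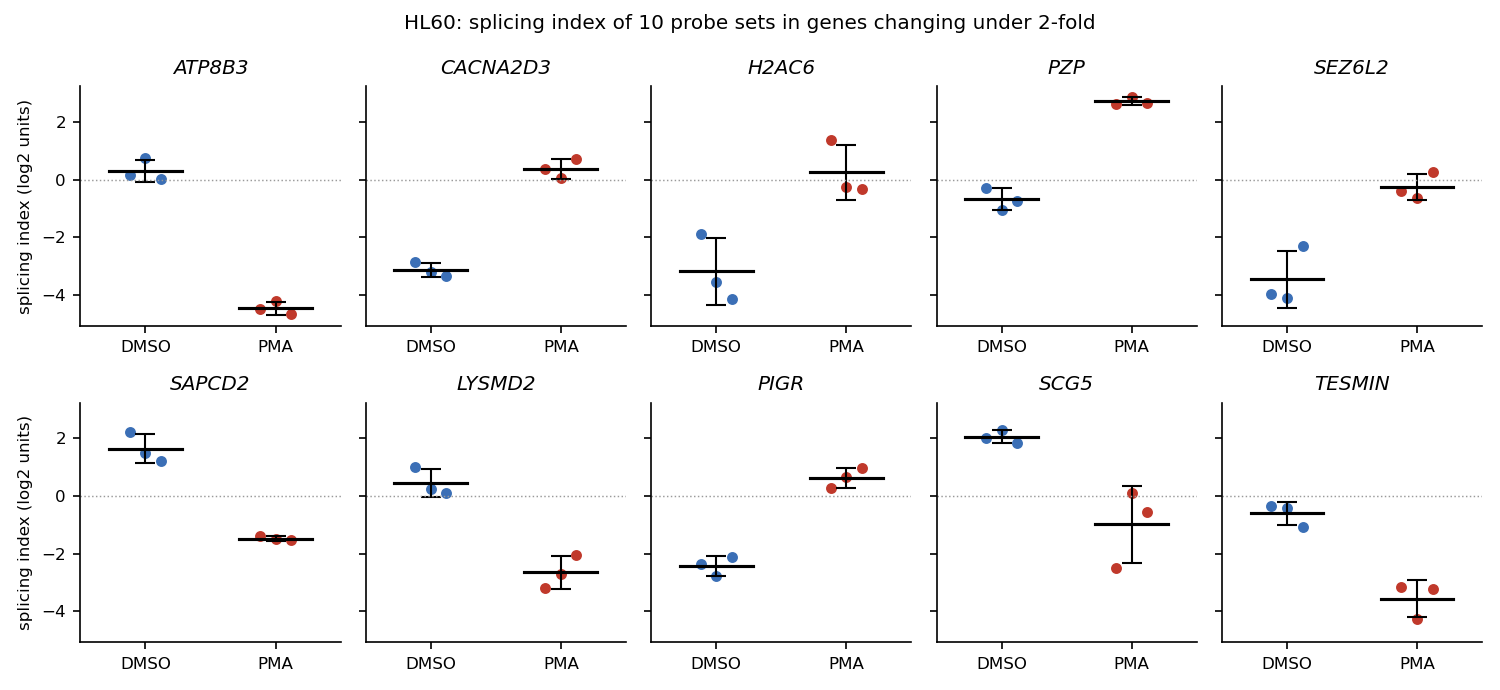
Splicing index (log2 units) in each HL60 array, 3 with DMSO (blue) and 3 with PMA (red). Shown are the 10 probe sets with the largest index change in genes that changed by less than 2-fold over all their probe sets. Bars give the mean ± SD of 3 arrays. The groups lie apart in each, and the arrays spread most for H2AC6 and SCG5.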

How the data were processed

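RNA of 18 samples was measured on Affymetrix exon arrays. The log2 values per probe set were deposited by the authors in a single file, made with Affymetrix Expression Console per the submitters' processing notes. No source used here gives the background correction, normalization or summary, so low levels and compressed changes cannot be traced to a step. Of 287329 probe sets, 261273 had 1 gene symbol, 9155 had several and 16901 had none. Of 16941 symbols, 14546 were current, 2260 were updated through RefSeq names and 135 were kept. Probe sets were averaged per gene, giving 16267 genes with at least 3.

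All 6 groups were fitted together with limma 3.58.1 in R 4.3.3, two-sided, with 12 residual degrees of freedom (17.06 after moderation) and Benjamini-Hochberg adjustment over all genes, called at an adjusted p under 0.05. The HL60 effect minus the mean of the other effects was a contrast of that fit. The splicing index was tested likewise for probe sets above the 30th percentile, in genes with at least 5 of these. The fits were tested on simulated data with independent noise in each array. That test does not cover arrays that deviate together. Same-numbered DMSO and PMA arrays of HL60 deviated together from their group means (r = 0.79, 0.48 and 0.58). The main fit did not pair them, and a fit with the replicate number as a block was an alternative.

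Genes named with values were the top 25 rises and top 25 falls that were called without overlap of the groups, up to 5 members of each list with the largest change, a few fixed genes, the 5 largest differences from the other lines in each direction, 10 probe sets by splicing index and genes whose promoter is printed. The members and lists were chosen with earlier results of these data known. Other alternatives were normalization, the gene summary, filters on low or few probe sets, the arrays in the fit and leaving out each array. The number of arrays limits the precision.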

Additional observations from a re-analysis of the deposited data

Results flagged for a closer look

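The effect of PMA differed between HL60 and the mean of THP-1 and U937 for 1379 genes by limma's test of the difference itself (adjusted p under 0.05). The named differences, in log2 units and with a higher effect in HL60, were 7.01 for CD226, 6.73 for GALNT12, 5.76 for CRABP2, 5.18 for FBP1 and 5.17 for SPINK1. Those with a lower effect in HL60 were -5.58 for MPO, -4.71 for SERPINB10, -4.43 for S100A8, -4.28 for MMP1, -4.20 for MMP8 and -3.79 for CD14. For S100A8 the difference from THP-1 alone was not called (limma adjusted p = 0.1).

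Probe sets with no gene symbol were used in no comparison above. Of 16901 such probe sets, 2072 were called between PMA and DMSO in HL60 by limma (12.3%), 732 higher and 1340 lower with PMA.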

How the results depend on the processing

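Without each HL60 array in turn, 3002 to 3495 genes were called, 1656 to 1772 higher and 1335 to 1769 lower. The other settings called 3526 to 5575 genes, the most with the replicate block, which kept all 3745. Without both U937 arrays numbered 2, 4944 genes were called, 3719 of them shared, and in HL60 and THP-1 arrays alone, an alternative chosen after seeing the data, 4855. The difference from the other lines was called for 2284 genes with quantile normalization, 2088 with median centring, 2829 with the replicate block and 977 to 1135 without single HL60 arrays. Exon usage gave 3968 called probe sets among those above the 50th percentile, where fewer were tested, and 4797 to 5662 without single arrays. Over 234 named genes, 3858 of 3954 values kept their call, 40 lost it, 56 gained it and 0 reversed. The block changed no named call besides those printed and those of NDUFV1, UQCRB, COX5A and ATP5PO (adjusted p = 0.0185, 0.0464, 0.0186 and 0.0206). List medians changed sign for erythroid and megakaryocyte markers (-0.01 to 0.14), haem and iron genes (-0.18 to 0.20) and the respiratory chain (-0.52 to 0.33). The cause was not tested for any of these. Low signal limits 4122 genes that were low in both groups, of which 157 were called.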

Other observations

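Some called genes lay next to each other in the gene order of RefSeq. These runs were chosen after their values were seen and have no test of their own. The longest held 8 neighbours that rose, from STIP1, a chaperone partner, through FERMT3, which activates integrins in blood cells, to PLCB3, by 0.75 to 1.92 log2 units. Another held 6 immune receptors, LILRA2, LILRA1, LILRB1, LILRB4, KIR3DL3 and KIR2DL4, which rose by 0.70 to 2.51, and these families have close copies that can share probes. The SLAM family genes SLAMF6, CD84, SLAMF1, CD48, SLAMF7 and LY9 rose by 0.62 to 5.59. In HL60, SKAP2 and the neighbouring homeobox genes HOXA2, HOXA3, HOXA4 and HOXA5 rose by 0.62 to 2.19. HOXA5, the largest of these, went from 4.97, 5.50 and 5.13 with DMSO to 7.41, 7.48 and 7.28 with PMA, and changed by 0.28 in THP-1 and -0.68 in U937. The granule genes AZU1, PRTN3 and ELANE fell together with their neighbours PTBP1 and CFD, by 0.94 to 3.83.

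Single probe sets also departed from their genes where the gene itself changed, and these were likewise chosen after their values were seen. One probe set of TSC22D1, a leucine zipper factor, went from a mean of 3.33 with DMSO to 12.00 with PMA while the gene rose by 1.94 (index change 6.68 ± 0.31 SE, limma adjusted p = 2.68e-08). One probe set of MYB, at a mean of 8.57 with DMSO, did not follow the gene's fall of 5.47 (index change 5.91 ± 0.40 SE, limma adjusted p = 4.4e-07). One probe set of PHLDA1 went from 1.11 to 10.34 while the gene rose by 4.13.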
